A study of Mus musculus with 5 samples.

Results

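The genes described here are 10 components of Notch signalling, namely the receptors Notch1, Notch2 and Notch3, the ligands Jag1, Jag2, Dll1 and Dll4, and the transcriptional targets Hes1, Hey1 and Heyl. They were taken by symbol from the 19938 genes measured on the arrays, and each had 1 row of its own. The tissue was mandibular condyle cartilage, which caps the lower jaw at its joint, from mice of strain 129/Sv that lacked discoidin domain receptor 1 (DDR-1-KO, n = 2, mice 2 and 5) or were wild type (n = 3, mice 3, 4 and 6). Each array carries total RNA of a mouse of its own, hybridised to an Affymetrix mouse gene 1.0 ST array. The sources used here give no age, sex or knockout allele and name no treatment. The names of the arrays place knockout 2 and wild type 3 in array run 1, and knockout 5 and wild types 4 and 6 in array run 2. They do not say whether a run is a scan or a hybridisation batch.

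Notch receptors span the cell membrane and bind Jagged and Delta-like ligands on a neighbouring cell. Binding lets ADAM proteases and the gamma-secretase complex cut the receptor, and the freed intracellular part enters the nucleus, where it joins the DNA-binding protein RBPJ and a Mastermind coactivator. Genes of the Hes and Hey families, which encode helix-loop-helix repressors, are among the main targets. In skeletal tissue the pathway is known for holding progenitors back from maturing and for its part in chondrocyte hypertrophy, and in blood vessels for its part in endothelial and mural cells. The comparison asks whether these genes differ in condylar cartilage without Ddr1, a collagen receptor.

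Upstream sequences are shown for the 5 Notch genes that lay lowest together on 1 knockout array (Notch1, Notch2, Notch3, Jag2 and Dll4) and for Lfng, the pathway gene that passed the test. Each window runs from 250 bases before to 50 bases after the gene's start, 5′ to 3′ on the gene's strand, from RefSeq on GRCm38.p6. The windows lie at chr2:26503773-26504072 (minus strand) for Notch1, chr3:98013288-98013587 (plus) for Notch2, chr17:32166841-32167140 (minus) for Notch3, chr12:112929446-112929745 (minus) for Jag2, chr2:119325534-119325833 (plus) for Dll4 and chr5:140607091-140607390 (plus) for Lfng. Capitals mark CACGCG, a site that Hes and Hey repressors can bind, and TGGGAA, the core of the RBPJ site, each on either strand (CGCGTG and TTCCCA). No matches overlapped in the windows shown.
Notch1: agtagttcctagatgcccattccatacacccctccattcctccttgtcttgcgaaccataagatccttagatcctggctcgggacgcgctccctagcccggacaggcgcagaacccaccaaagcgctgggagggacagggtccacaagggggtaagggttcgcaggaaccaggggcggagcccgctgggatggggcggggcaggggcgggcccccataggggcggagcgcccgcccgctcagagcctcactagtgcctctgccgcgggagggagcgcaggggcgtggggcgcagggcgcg
Notch2: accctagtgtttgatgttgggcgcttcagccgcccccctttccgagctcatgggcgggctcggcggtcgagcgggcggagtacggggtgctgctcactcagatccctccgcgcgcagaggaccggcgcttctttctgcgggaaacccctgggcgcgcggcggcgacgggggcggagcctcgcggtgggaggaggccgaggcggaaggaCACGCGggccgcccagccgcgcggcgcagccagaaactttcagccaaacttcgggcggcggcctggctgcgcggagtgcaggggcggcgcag
Notch3: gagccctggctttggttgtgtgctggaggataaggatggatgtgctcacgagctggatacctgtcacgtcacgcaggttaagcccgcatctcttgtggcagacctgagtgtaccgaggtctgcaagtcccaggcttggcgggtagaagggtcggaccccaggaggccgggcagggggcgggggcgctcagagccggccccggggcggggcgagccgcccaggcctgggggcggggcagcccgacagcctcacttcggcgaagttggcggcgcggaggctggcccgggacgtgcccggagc
Jag2: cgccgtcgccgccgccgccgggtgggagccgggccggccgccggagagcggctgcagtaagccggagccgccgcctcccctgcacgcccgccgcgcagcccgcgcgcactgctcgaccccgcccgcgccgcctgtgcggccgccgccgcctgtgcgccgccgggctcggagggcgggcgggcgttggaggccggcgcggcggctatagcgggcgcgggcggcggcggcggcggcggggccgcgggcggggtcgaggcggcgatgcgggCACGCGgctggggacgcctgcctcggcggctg
Dll4: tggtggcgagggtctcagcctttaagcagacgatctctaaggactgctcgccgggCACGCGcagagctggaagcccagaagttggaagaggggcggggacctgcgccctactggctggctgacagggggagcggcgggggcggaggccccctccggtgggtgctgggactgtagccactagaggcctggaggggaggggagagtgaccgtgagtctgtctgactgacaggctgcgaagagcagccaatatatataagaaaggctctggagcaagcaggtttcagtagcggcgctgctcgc
Lfng: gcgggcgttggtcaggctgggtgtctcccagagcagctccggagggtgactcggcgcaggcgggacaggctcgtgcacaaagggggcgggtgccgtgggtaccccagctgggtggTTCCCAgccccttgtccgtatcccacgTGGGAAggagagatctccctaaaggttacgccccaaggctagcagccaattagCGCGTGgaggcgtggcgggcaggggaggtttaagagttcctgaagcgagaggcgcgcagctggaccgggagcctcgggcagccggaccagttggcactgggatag

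Of the 10 genes, 7 had a window, with 2 for Dll1 and so 8 in all, and Hes1, Hey1 and Heyl had none. CACGCG was found in 5 of the 8 windows, those of Notch2, Jag1, Jag2 and Dll4 and 1 of Dll1, against 9.27% of all 32851 windows. The 8 windows held the letters CG 15 to 63 times, against a median of 7 over all windows, and CACGCG itself holds CG. No comparison was made with windows of like CG content. TGGGAA was found in 0 of the 8, against 25.6% of all windows. The Lfng window held 2 matches to TGGGAA, which began 135 and 108 bases before the start, and 1 match to CACGCG. The share of G and C varied between the windows. For Jag2 it was 86.0%, above that of 99.9% of all windows, and for Notch1, Notch2, Notch3 and Dll4 it was 68.3%, 73.0%, 70.0% and 63.7%. It was 55.7% for Jag1 and 62.7% and 56.3% for the windows of Dll1, with a median of 52.7% over all windows. A match of letters is a description of the window and was not tested as a binding site.

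Values are log2 RMA signals as deposited, and a change is knockout minus wild type on that scale. The knockout arrays stood apart from the wild-type arrays and from each other. Pearson's r across genes was 0.984 to 0.993 between wild-type arrays. It was 0.903 to 0.927 for knockout 5 against wild type, only 0.814 to 0.837 for knockout 2 against wild type, and 0.803 between both knockout arrays. The spread of values over genes was also narrowest in knockout 2, with an SD of 0.802 against 0.991 to 1.02 in wild type and 0.906 in knockout 5. Ddr1 itself read 5.96 in knockout 2, 5.80 in knockout 5 and 6.02 in all wild-type mice (change -0.14, limma's adjusted p = 0.377), and it turned to 0.035 after cyclic loess, so it does not check the labels. Several arrays often carry exactly the same value for a gene. That was so for 9 of the 10 Notch genes, all but Jag2. The 3 wild-type values were identical for Notch1, Notch3 and Heyl, against 39.1% of all genes. A wild-type SD of 0 in such a gene does not measure the spread between mice. Calls of detection above background were not used here, so a low signal cannot be told apart from no expression.

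None of the 10 Notch genes passed the test in knockout cartilage. With limma and Benjamini-Hochberg adjustment over all genes, 0 of 10 rose and 0 fell at adjusted p under 0.05, against 3.73% of all genes called, and 1 of 10, Hey1, had an unadjusted p under 0.05, against 18.2% of all genes. The adjusted p ran from 0.237 for Hey1 to 0.713 for Jag1. Changes were below 0 in 8 genes, against 51.1% of all genes, and above 0 in Dll1 and Hey1. The median change was -0.30 beside -0.0083 over all genes. All 10 genes had a mean signal above the median over genes. Among such brighter genes alone 55 rose and 391 fell at adjusted p under 0.05 in limma, against 309 and 435 over all genes. The shares over all genes are thus not matched for brightness, and no matched share was computed. Values of 2 genes, Dll1 and Hey1, lay higher in both knockout mice than in any wild-type mouse (13.0% of all genes did so), and those of Jag2 and Heyl lay lower in both (18.6% of all genes). The other 6 genes overlapped or were tied. In a whole tissue, fewer cells of a type and less RNA per cell cannot be told apart.

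**Figure D1:**
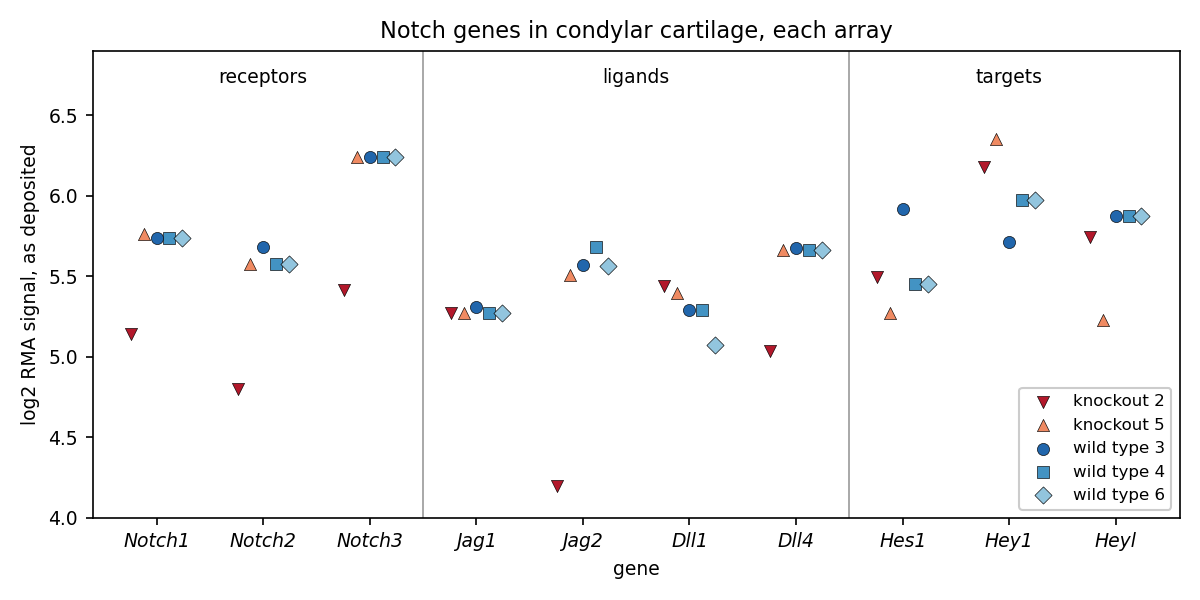
Log2 RMA signal of the 10 Notch genes (x axis, by role) on each of the 5 arrays, 1 point per array. Knockout 2 (dark red, pointing down) lies below all other arrays for Notch1, Notch2, Notch3, Jag2 and Dll4, while knockout 5 lies with wild type in these genes apart from a small gap in Jag2.

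All 3 receptors were lower in knockout 2 and near wild type in knockout 5. Notch1, a receptor of wide use in development, read 5.14 in knockout 2 and 5.76 in knockout 5, while all 3 wild-type mice read 5.74. Its signal in knockout 2 was thus 0.662 of the wild-type mean on the linear scale, while knockout 5 lay slightly above wild type. The change over both mice was -0.29 (SE 0.21, limma's adjusted p = 0.404).

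Notch2, the receptor whose mutation causes a human disorder of bone loss, read 4.80 in knockout 2 and 5.58 in knockout 5. Wild-type mice were at 5.68 (wild type 3), 5.58 and 5.58, so knockout 5 equalled the lower wild-type value and knockout 2 alone was low. Both mice together gave a change of -0.42 (SE 0.27, limma's adjusted p = 0.399). Notch3, known for its role in the mural cells of vessels, had 1 value, 6.24, on 4 arrays, knockout 5 included, and 5.42 in knockout 2. Its change of -0.41 (SE 0.28, limma's adjusted p = 0.399) therefore rests on knockout 2 alone. On the linear scale knockout 2 had signals for Notch2 and Notch3 of 0.569 and 0.564 times the wild-type mean.

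Notch4, the receptor best known from endothelium and not among the 10 genes, was singled out after its values were seen. Knockout 2 read 4.58 and knockout 5 read 6.71, with all 3 wild-type mice at 6.18. The knockout mice thus lay on opposite sides of wild type, with a log2 difference of -2.13 for knockout 2 against knockout 5 (change -0.53, SE 0.72, limma's adjusted p = 0.632).

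Among the ligands, Jag2 had the largest distance from wild type and Jag1 the smallest. Jag2, which signals to Notch receptors on neighbouring cells in limb and thymus development, read 4.20 in knockout 2 and 5.50 in knockout 5. Wild-type values were 5.57, 5.68 and 5.56 for mice 3, 4 and 6. Both knockout values were below all wild-type values, by 1.36 in knockout 2 and by 0.060 in knockout 5. Both mice together gave a change of -0.75 (SE 0.44, limma's adjusted p = 0.399), and the SD between the knockout arrays, 0.923, was larger than the change itself.

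Dll4, the Delta-like ligand that guides vessel sprouting, followed the receptors. Knockout 2 read 5.03 and knockout 5 read 5.66, and wild types 3, 4 and 6 read 5.67, 5.66 and 5.66, a change of -0.32 (SE 0.21, limma's adjusted p = 0.399). Knockout 5 was tied with wild types 4 and 6. Dll1, a ligand that acts in somite and progenitor patterning, went the other way. Its values were 5.44 and 5.40 in knockout mice 2 and 5, and 5.29, 5.29 and 5.07 in wild type, so that the groups did not overlap. The change of 0.20 (SE 0.088, limma's adjusted p = 0.398) was smaller than the range of 0.22 within wild type, and without wild type 6 it was 0.12.

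Jag1, the ligand tied to heart, liver and skeletal defects in Alagille syndrome, held 1 value, 5.27, on 4 arrays and 5.31 in wild type 3. Its change was -0.013 (SE 0.021, limma's adjusted p = 0.713). The sign was carried by wild type 3, and it turned under each rescaling of the arrays, to 0.060 with arrays centred and 0.090 with arrays centred and scaled.

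The 3 targets did not share a direction. Hey1, a repressor induced by Notch and by BMP signals, was higher in both knockout mice, at 6.18 and 6.35, than in wild type, at 5.71, 5.97 and 5.97. Its change was 0.38 (SE 0.12), 1.30-fold on the linear scale, with an unadjusted p of 0.0382 and limma's adjusted p = 0.237. Within array run 1 the difference was 0.46 and within run 2 it was 0.38. With the array run as a block the change was 0.41 (adjusted p = 0.0635), and cyclic loess gave 0.56 (adjusted p = 0.0986). Of the 10 genes it had the lowest adjusted p in the test and did not pass in any setting that was run.

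Heyl, a relative of Hey1 found in vascular smooth muscle and other Notch-active cells, was lower in both knockout mice. Knockout 2 read 5.74 and knockout 5 read 5.23, while all wild-type mice read 5.88, for a change of -0.39 (SE 0.17, limma's adjusted p = 0.399). Here knockout 5 lay farther from wild type than knockout 2, the reverse of the receptors. After cyclic loess knockout 2 lay 0.092 above the wild-type mean and knockout 5 lay at -0.58 from it, so only knockout 5 was low on that scale.

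Hes1, the repressor most used as a readout of Notch activity, spread widely within wild type, at 5.92 in mouse 3 and 5.45 in mice 4 and 6. Knockout values were 5.49 and 5.27, a change of -0.22 (SE 0.20, limma's adjusted p = 0.474). Knockout 2 lay within the wild-type range and knockout 5 below it, and the change was -0.10 after cyclic loess and -0.068 without wild type 3. The wild-type SD was 0.27, above the size of the change. Its difference was -0.43 within array run 1 and -0.18 within run 2.

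Low values in knockout 2 were counted with a distance of at least 0.5 below the lowest wild-type value, a count chosen after the values were seen and not tested. In knockout 2, 5 of the 10 genes (Notch1, Notch2, Notch3, Jag2 and Dll4) met it, against 15.8% of all genes, and in knockout 5 only Heyl did, against 6.56% of all genes. After cyclic loess, 3 of the 10 met it in knockout 2 (Notch2, Notch3 and Jag2), against 10.5% of all genes, and 3 of the 10 did so with arrays centred and scaled, against 11.2% of all genes. After cyclic loess the changes of Notch1, Notch3 and Dll4 were -0.15, -0.23 and -0.19. The median distance of the 10 genes from the wild-type mean was -0.36 in knockout 2 and -0.0077 in knockout 5, and -0.15 and 0.035 after cyclic loess. Within array run 1 the median change was -0.51 and within run 2 it was 0. Without knockout 2 the median change of the 10 genes was -0.0077 in place of -0.30. Without knockout 5, with the lone array taken to vary like wild type, 6 of the 10 genes passed, namely the same 5 and Heyl, against 50.2% of all genes. Without knockout 2, 2 passed, against 37.7% of all genes, namely Heyl and Notch1. Notch1 then lay 0.024 above wild type, and the wild-type SD was 0 for both.

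**Figure D2:**
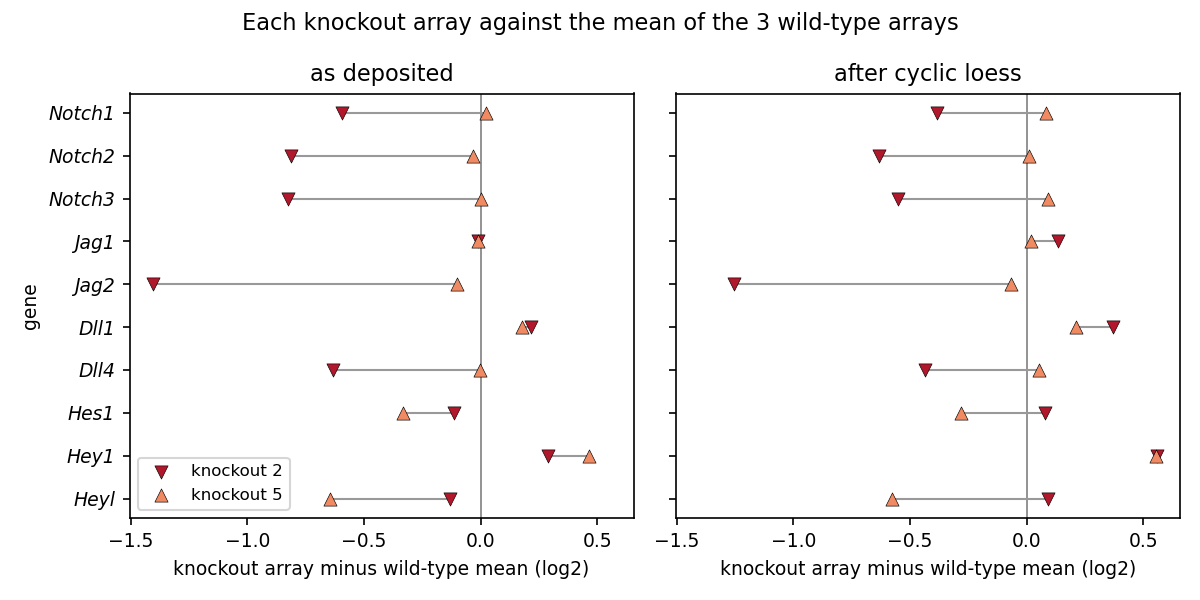
Distance of each knockout array from the mean of the 3 wild-type arrays (x axis, log2) for the 10 Notch genes (y axis), as deposited (left) and after cyclic loess (right), with a grey line between both knockout arrays. Jag2 is farthest from wild type in knockout 2, at -1.41 as deposited and -1.26 after cyclic loess, while Hey1 is the gene with both knockout arrays farthest above wild type after cyclic loess, at 0.56 each.

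Other genes of the pathway were followed through a list of 46, of which 44 were measured and the others were not analysed here. Of the 44, 0 rose and 1 fell, against 2.18% of all genes called lower. An unadjusted p under 0.05 was found for 8 of the 44, against 18.2% of all genes. The gene that fell was Lfng, the glycosyltransferase Lunatic fringe, which adds sugar to Notch receptors in the Golgi and thereby shifts their response between Delta-like and Jagged ligands. Lfng read 4.95 in knockout 2 and 5.04 in knockout 5, and 5.72, 5.76 and 5.72 in wild types 3, 4 and 6. Both knockout mice lay below every wild-type mouse, with knockout 2 at -0.092 from knockout 5. Both mice together gave a change of -0.74 (SE 0.038, limma's adjusted p = 0.0167), 0.597 of the wild-type signal on the linear scale.

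Its difference was -0.78 within array run 1 and -0.71 within run 2. The call was lost with array run as a block (adjusted p = 0.0528), after cyclic loess (-0.63, adjusted p = 0.052) and after quantile normalisation (adjusted p = 0.0523). It was also lost with array weights (adjusted p = 1), which were 0.014 and 0.005 for knockouts 2 and 5 against 6.17 to 50.6 in wild type. The estimate of these weights stopped before it converged. Both knockout arrays lie equally far from their own mean, so the weights do not rank them. Without wild type 3, 4 or 6 the call was lost too (adjusted p = 0.117, 0.14 and 0.179). In all these settings 0 of all genes passed in limma. The call was kept with arrays centred (adjusted p = 0.0324), with arrays centred and scaled (adjusted p = 0.04955) and with all rows tested (adjusted p = 0.034), where other genes passed too. Wild types 3 and 6 had the same value of Lfng, so its SE rests in part on identical values. The other fringe genes had smaller changes that did not pass, at -0.085 for Rfng and -0.070 for Mfng. After cyclic loess knockout 2 lay above the wild-type mean for both, by 0.22 and 0.21, and knockout 5 below it. Both genes were named after their values were seen.

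The next genes of lowest p did not pass, and both knockout mice were below all wild-type mice in each. Hey2, the third repressor of the Hey family, was at 4.14 and 4.01 in knockout and at 4.63, 4.52 and 4.52 in wild type (change -0.48, adjusted p = 0.0554). Dtx1, a Deltex ubiquitin ligase that regulates Notch receptors, was at 6.34 and 6.58 against 7.01, 7.01 and 7.03 (change -0.56, adjusted p = 0.0658). Cyclic loess brought this to -0.29, and centring plus scaling of arrays to -0.23. Ncstn, the gamma-secretase subunit nicastrin, was at 4.73 and 4.80, with all wild-type mice at 4.92 (change -0.15, adjusted p = 0.0829), and with arrays centred the change was -0.082.

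Hes6, a Hes relative that antagonises Hes1, was at 6.21 and 6.11 in knockout against 6.92, 6.82 and 6.60 in wild type. Its change of -0.62 had limma's adjusted p = 0.096. Cyclic loess brought it to -0.38, and centring plus scaling of arrays to -0.32. Neurl1a, a ubiquitin ligase related to Drosophila neuralized, which acts on Notch ligands, was at 5.11 and 5.52 against 5.91, 5.92 and 5.91 (change -0.60, adjusted p = 0.14). In the Hey family the changes of Hey2 and Heyl were thus below 0 and that of Hey1 above 0, and these differences between genes were not tested.

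Over the 44 genes, 29 changes were below 0, against 51.1% of all genes (not matched for brightness), 12 were above 0 and 3 at 0. The median change was -0.053 beside -0.0083 over all genes. Groups did not overlap in 12 genes with knockout lower and in 1 with knockout higher, against the 18.6% and 13.0% of all genes given above. Rbpj, the DNA-binding partner of all Notch receptors, was at 6.11 in knockout 2 and between 6.04 and 6.06 on the other arrays (change 0.031, adjusted p = 0.421), but after cyclic loess knockout 2 lay 0.33 above the wild-type mean. Maml3, a Mastermind coactivator, had the same deposited value on all 5 arrays, and knockout 2 lay 0.21 above the wild-type mean after cyclic loess. In contrast, Nrarp, a feedback inhibitor induced by Notch, read 5.70 in knockout 2 and 4.45 in knockout 5 while all wild-type mice read 4.99, so the knockout mice lay on opposite sides. Dlk1, a ligand-like protein of progenitor cells, was low in knockout 2 only, at 5.95 against 7.15 in knockout 5 and 7.13, 7.18 and 7.13 in wild type. Psen2, a catalytic subunit of gamma-secretase, shared that pattern, at 5.60 against 6.71 in knockout 5 and 6.71, 6.76 and 6.71 in wild type. Rbpj, Maml3, Nrarp, Dlk1 and Psen2 were chosen after their values were seen.

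**Figure D3:**
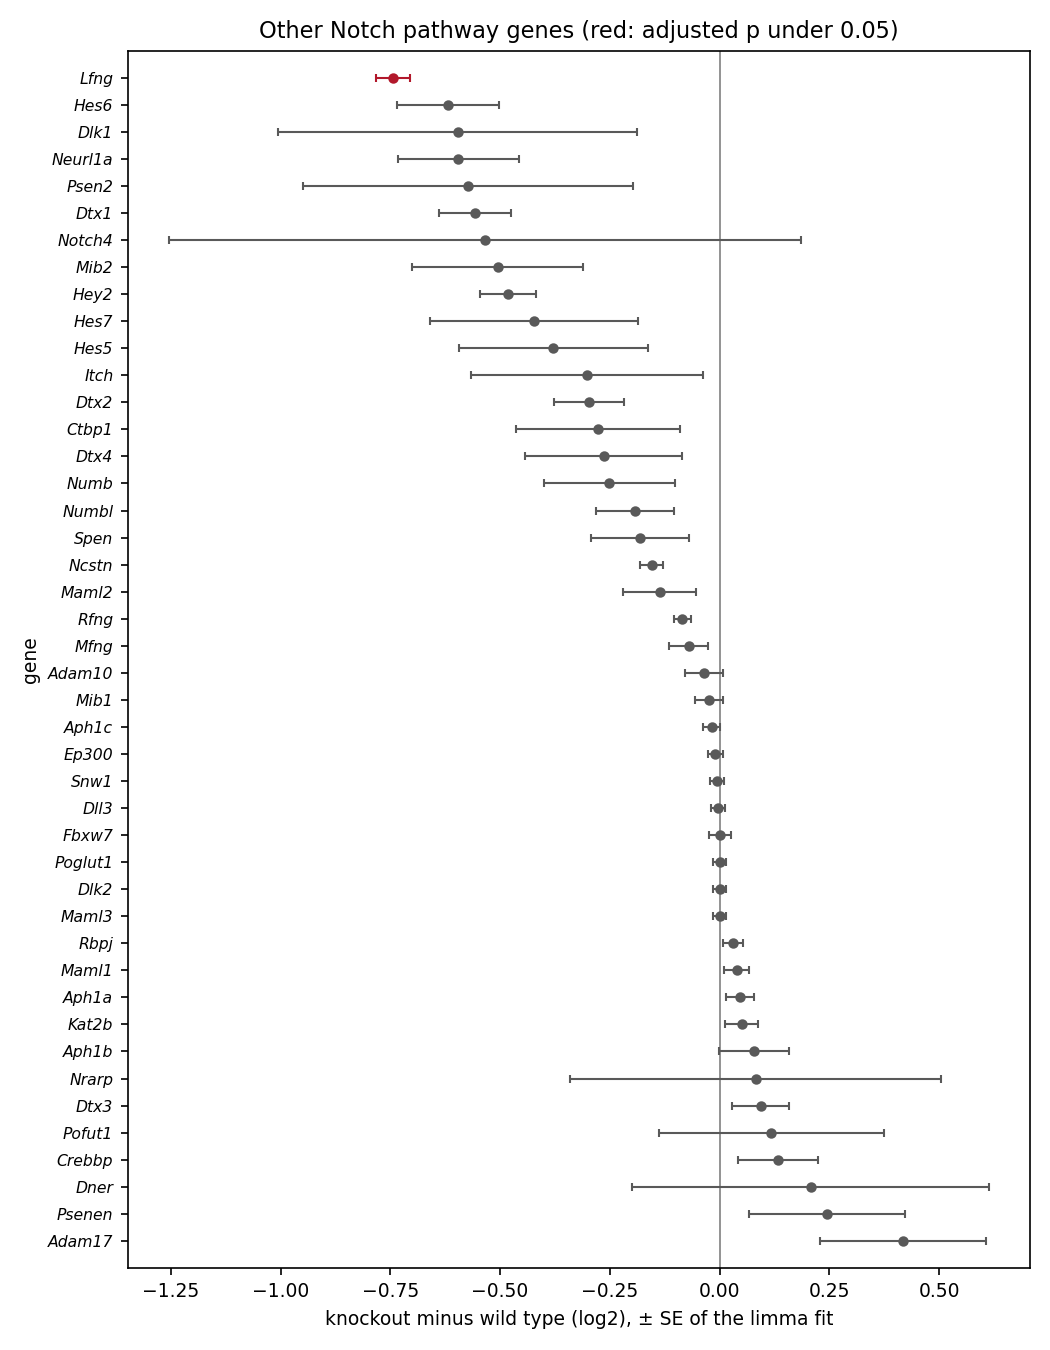
Change of the 44 other Notch pathway genes (y axis, ordered by change) as knockout minus wild type on the log2 scale (x axis), with bars of 1 SE from the limma fit. Lfng, in red at -0.74, is the gene past the threshold, and wide bars such as that of Notch4 (SE 0.72) mark genes in which the knockout arrays lay far apart.

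Some lists of markers of the cell types that dissected cartilage can hold were also low in knockout 2. The 13 chondrocyte markers all had changes below 0, of which those of Sox9 (-0.42, limma's adjusted p = 0.0229) and Comp (-0.41, limma's adjusted p = 0.0327) passed. Counts of changes below 0 in this and the other lists stand beside 51.1% of all genes, which were not matched for brightness. An unadjusted p under 0.05 was found for 5 of these 13 markers, and the counts of such markers in this and the other lists stand beside 18.2% of all genes. Their median distance from wild type was -0.46 in knockout 2 and -0.055 in knockout 5, and their summed linear signal was 786 and 910 in knockout mice 2 and 5 against 1032 to 1043 in wild type. Summed signals in this and the other lists use deposited values and weigh the brightest genes most. They were not computed after rescaling of the arrays. Col2a1, the main cartilage collagen, read 7.07 and 6.96, with all wild-type mice at 7.27, a change of -0.26 which turned to 0.045 under cyclic loess. Acan, the cartilage proteoglycan, read 4.81 in knockout 2 and 5.92 in knockout 5, on either side of the 5.40 of all wild-type mice. After cyclic loess knockouts 2 and 5 lay above the wild-type mean for Col9a1 (0.22 and 0.12) and Cnmd (0.030 and 0.085). The medians over the chondrocyte list stayed below 0 on that scale, at -0.21 and -0.058. Col9a1 and Cnmd were named after their values were seen.

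Endothelial markers had changes below 0 in 10 of 12 genes, of which 0 passed in limma and 3 had an unadjusted p under 0.05. Their median distance was -0.40 in knockout 2 and -0.060 in knockout 5, and the summed signal was 477 and 552 against 576 to 608 in wild type. Pecam1, an adhesion molecule of endothelium, was at 4.84 and 4.64 against 5.37, 5.31 and 5.15 (change -0.53, adjusted p = 0.10), and the VEGF receptor Kdr was at 5.24 and 5.52, with all wild-type mice at 5.76 (change -0.38, adjusted p = 0.164). Cdh5, the cadherin of endothelial junctions, had a change of 0.10. The other marker with a change above 0 was Emcn, named after its values were seen. It read 5.23 in knockout 2 and 4.49 on all other arrays (change 0.37, limma's adjusted p = 0.399).

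Mural cell markers had changes below 0 in 7 of 10 genes with 0 calls in limma (1 at an unadjusted p under 0.05), a median distance of -0.19 in knockout 2 and 0 in knockout 5, and a summed signal of 362 and 449 against 434 to 444. Rgs5, Pdgfrb and Acta2 had changes of 0.26, -0.25 and -0.31. The medians were 0 and 0 for 7 osteoblast and osteocyte markers, with 0 calls in limma (1 at an unadjusted p under 0.05) and a summed signal of 323 and 390 against 363 to 369. Blood cell markers all had changes above 0, a median of 0.17 in knockout 2 and 0.085 in knockout 5 with 0 calls in limma among 6 (1 at an unadjusted p under 0.05), a summed signal of 240 and 239 against 194 to 198, and 5.44 and 5.13 for the leukocyte antigen Ptprc against 4.77, 4.74 and 4.41. Skeletal muscle markers had medians of -0.13 and -0.14, a summed signal of 393 and 407 against 466 to 508, and changes below 0 in 7 of 8 genes, with 2 at an unadjusted p under 0.05. Of these the muscle phosphorylase Pygm fell (-0.62, limma's adjusted p = 0.0442). Acta1, skeletal muscle actin, named after its values were seen, was at 5.60 and 5.59 against 6.68, 6.32 and 6.32 (change -0.84, adjusted p = 0.0789), and Myh4 had a change of -0.11. After cyclic loess the medians in knockouts 2 and 5 were -0.024 and 0.062 for mural and -0.016 and -0.088 for skeletal muscle markers. On that scale they were 0.050 and -0.0064 for osteoblast and osteocyte markers and 0.30 and 0.088 for blood cell markers.

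The calls of Sox9, Comp and Pygm were also lost in the settings above in which 0 of all genes passed, and in some in which others did. With arrays centred, where 635 genes passed, Sox9 and Comp did not (adjusted p = 0.0509 and 0.0601). After centring plus scaling, none of the 3 passed (adjusted p = 0.143, 0.232 and 0.0612), and the changes of Sox9 and Comp were -0.24 and -0.19. Pygm also did not pass with all rows tested (adjusted p = 0.0543) or robust eBayes (adjusted p = 0.0535). Wild types 3 and 6 had the same value of Sox9, and wild types 4 and 6 the same values of Comp and of Pygm. The SEs of these 3 genes thus rest in part on identical values. No marker was at 0 on these log2 scales, which have no zero for absence. The part of cell type makeup, and of the narrower spread of values in knockout 2, in the Notch values was not tested.

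**Figure D4:**
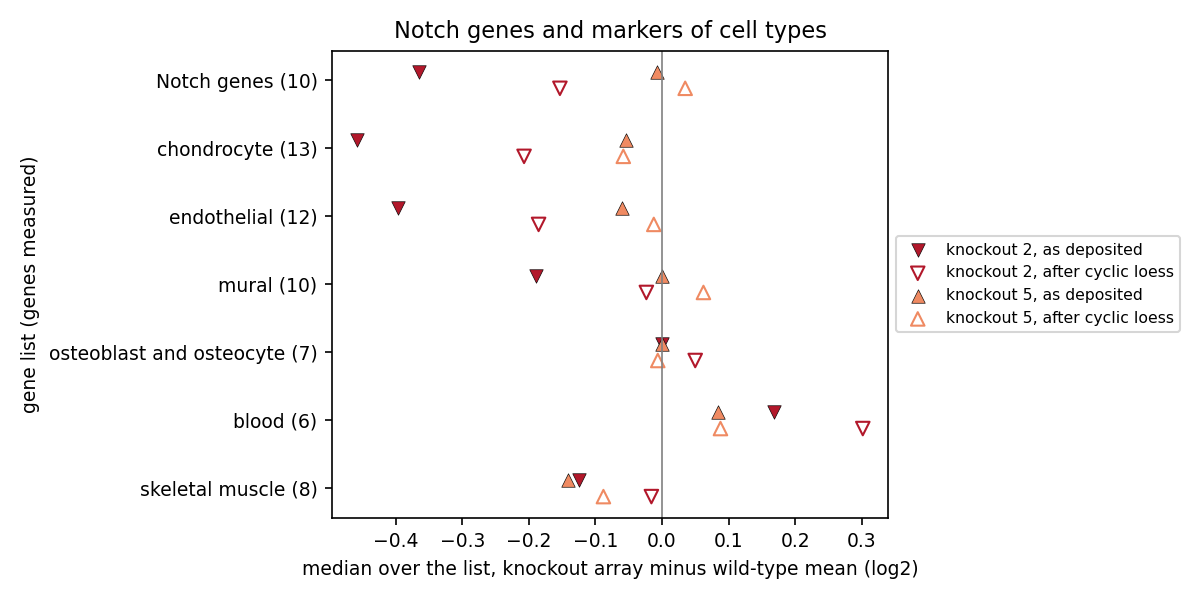
Median distance of knockout 2 and knockout 5 from the wild-type mean (x axis, log2) over the 10 Notch genes and over 6 lists of cell type markers (y axis, genes measured in parentheses), as deposited (filled) and after cyclic loess (open). In knockout 2 the Notch genes (-0.36), the chondrocyte markers (-0.46) and the endothelial markers (-0.40) lie low together, and all 3 medians are nearer to 0 after cyclic loess, at -0.15, -0.21 and -0.19.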

How the data were processed

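RNA of mandibular condyle cartilage from 2 knockout and 3 wild-type mice was measured on 5 arrays. The authors made the deposited log2 values with Affymetrix Expression Console and RMA, per the submitters' processing notes. RMA corrects background, quantile-normalises arrays and summarises each transcript's probes by median polish. Over the genes compared here the deposited values still differed in spread, with an SD of 0.802 in knockout 2 against 0.991 to 1.02 in wild type. The sources used here give neither tool versions nor a genome build. The number of arrays limits the precision.

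Rows were named from the platform annotation. Of 35556 rows, 21789 had 1 gene symbol and were kept, 1621 had several and 12146 none. The brightest row stood for each of 999 genes with more than 1 row, and no Notch gene of the 10 had a second row. Genotypes were compared with limma 3.58.1 (lmFit, eBayes) in R 4.3.3 over 19938 genes, two-sided, with Benjamini-Hochberg adjustment and a threshold of 0.05. P-values rest on the spread between mice and arrays together only where the values of a gene differ. All wild-type values were identical for 39.1% of all genes, and there wild type added no measured spread. Maml3, with the same value on every array, still had an SE of 0.015, which its own values do not supply. The fit was tested on simulated data with independent normal noise of the same size for all genes and arrays. Those data lack the tied values and the unequal arrays of the deposited table, so the test does not cover these features. Upstream windows came from RefSeq on GRCm38.p6.

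Genes, lists and tests were chosen with earlier results of these data known. Named were the 10 genes, the 6 pathway genes of lowest p (any past the threshold included), markers past the threshold with 11 defining markers, and Ddr1. Alternatives covered array run, normalisation, dim genes, row choice, variance model, array weights, threshold and each array left out. The count of low values in knockout 2 was added after seeing the data. The groups share no replicate number.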

Additional observations from a re-analysis of the deposited data

How the results depend on the processing

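No paired analysis was possible because the groups share no replicate number. With the array run as a block, cyclic loess, quantile normalisation or array weights (whose estimate stopped before it converged), 0 pathway genes and 0 of all genes passed in limma, in place of 1 and 744. At an unadjusted p under 0.05 there were 3829, 3919, 3761 and 1917 of all genes in these 4 settings. Without wild type 3, 4 or 6 both counts were also 0, with 2458, 2312 and 2434 of all genes at an unadjusted p under 0.05. All genes past the threshold numbered 158 with arrays centred and scaled, 446 among brighter genes only, 445 with all rows tested and 1630 at adjusted p under 0.1. Of the 446 brighter genes, 55 rose and 391 fell. The pathway count was 2 with arrays centred (Lfng and Dtx1) and 5 at adjusted p under 0.1. The count of the 10 Notch genes was 0 under all alternatives except those that left out a knockout array. With each array left out in turn it ran from 0 to 6, that of pathway genes from 0 to 23 and that of all genes from 0 to 9999, and the median change of the 10 genes ran from -0.36 to -0.0077. The number of Notch genes with knockout 2 well below wild type was 3 in place of 5 both with arrays centred and scaled and after cyclic loess.

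The sign turned for Jag1, to 0.076 with cyclic loess, 0.088 with quantile normalisation, 0.060 with arrays centred and 0.090 with arrays centred and scaled. With each array left out in turn the change ran from -0.60 to 0.024 for Notch1, from -1.10 to 0.48 for Acta2 and from -0.59 to 0.52 for Acan, above 0 without knockout 2. The sign also turned for Col2a1 with arrays centred and scaled (0.16) or cyclic loess (0.045), and for Ddr1 with cyclic loess (0.035), quantile normalisation (0.011) and arrays centred and scaled (0.083). It turned for Acan with the run as a block (0.043), cyclic loess (0.068), quantile normalisation (0.044), arrays centred (0.036) and arrays centred and scaled (0.046). The cause was not tested. With 2 and 3 arrays and no detection call, signal over background limits what can be said of dim genes.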

Other observations

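Exact values recur across genes as well as across arrays. Of the 50 deposited values of the 10 Notch genes, 19 were held by at least 1 other row of the same array. The value 5.27417 stood for both Jag1 and Hes1 on knockout 5, where 167 rows held it besides each gene's own row. Over the whole table the share of rows whose value recurs on the same array was 29.8% in knockout 2, 31.8% in knockout 5, and 40.8%, 44.6% and 47.6% in wild types 3, 4 and 6.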
